A study of Mus musculus with 6 samples.

Results

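Transcripts of 10 genes of the perineuronal net and of its protease inhibitors were followed through 6 RNA-seq libraries of mouse medial mammillary neurons. These were the lecticans Acan, Bcan, Ncan and Vcan, the link proteins Hapln1 and Hapln4, the cross-linker Tnr, and the metalloproteinase inhibitors Timp2, Timp3 and Timp4. Each was taken by its name from the deposited expression table, where all 10 occur once among 55414 genes. The list was chosen by gene family and by FPKM values of these same PV and Drd2 libraries, which were already known, so the differences of these 10 genes between the classes are given as a description and not as a test. The libraries were made from fluorescent neurons of male mice that were sucked into glass electrodes after papain digestion of slices. The 3 PV libraries (replicates 6, 7 and 8) came from PV-positive neurons, marked by the calcium-binding protein parvalbumin, and the 3 Drd2 libraries (replicates 1, 2 and 3) from Drd2-positive neurons, marked by the D2 dopamine receptor. The series calls the libraries of a class biological replicates. The sources used here do not give the strain, age, driver or reporter line, or the number of mice and cells per library, so the spread between libraries may be partly technical.

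A perineuronal net is a lattice of extracellular matrix that surrounds the soma and proximal dendrites of some neurons, and in many brain regions parvalbumin neurons carry the densest nets. Long hyaluronan chains form its backbone, lecticans bind the chains with their N-terminal domain, link proteins lock that bond, and tenascin-R ties the other end of the lecticans together. Aggrecan, the product of Acan, is the lectican most tightly tied to nets, whereas brevican, neurocan and versican are made by glia as well as by neurons. Metalloproteinases of the Mmp, Adam and Adamts families cut lecticans, and Timp proteins block these enzymes.

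The libraries held the transcripts they were labelled for, and neither marker overlapped between the classes. Pvalb was at 349, 482 and 563 FPKM in PV replicates 6, 7 and 8, against 10.4, 22.5 and 99.5 FPKM in Drd2 replicates 1, 2 and 3. Drd2 was listed at 0 in PV replicates 7 and 8 and reached 0.0132 FPKM in PV replicate 6, against 42.7, 55.0 and 7.74 FPKM in Drd2 replicates 1, 2 and 3. Drd2 replicate 3 thus held the highest Pvalb and the lowest Drd2 level within its class. All 7 neuronal markers were at 1 FPKM or more in every library. PV replicate 7 had the fewest genes at 1 FPKM or more (8610, against 10293 to 12398 in the other 5 libraries). Mitochondrial genes took 9.62% to 31.3% of the FPKM total in PV and 3.74% to 5.20% in Drd2. Depth, recovered from the steps of low values, was 23.8 to 33.7 in units of 1e6 fragments, so that 1 read per kilobase of gene equals 0.0296 to 0.0420 FPKM.

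Timp2 was the most abundant of the 10 genes in Drd2 neurons and Bcan in PV neurons, by mean FPKM, a unit that corrects for gene length. In PV the order of means was Bcan, Timp2, Hapln4, Timp4, Tnr, Ncan, Acan, Hapln1, Timp3 and Vcan, and the ranges over the 3 libraries overlapped at every step of it. In Drd2 it was Timp2, Hapln4, Bcan, Timp4, Timp3, Ncan, Tnr, Hapln1, Acan and Vcan. There, 2 steps stood clear of the spread between libraries, from Timp2 down to Hapln4 and from Tnr down to Hapln1. Only Bcan, Hapln4, Tnr and Timp2 reached 1 FPKM in all 6 libraries. Of the 10 genes, 7 passed the filter of at least 1 FPKM in at least 3 libraries and entered the fit over 11478 genes. Acan, Hapln1 and Vcan did not, and no fold is given for them.

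**Figure D1:**
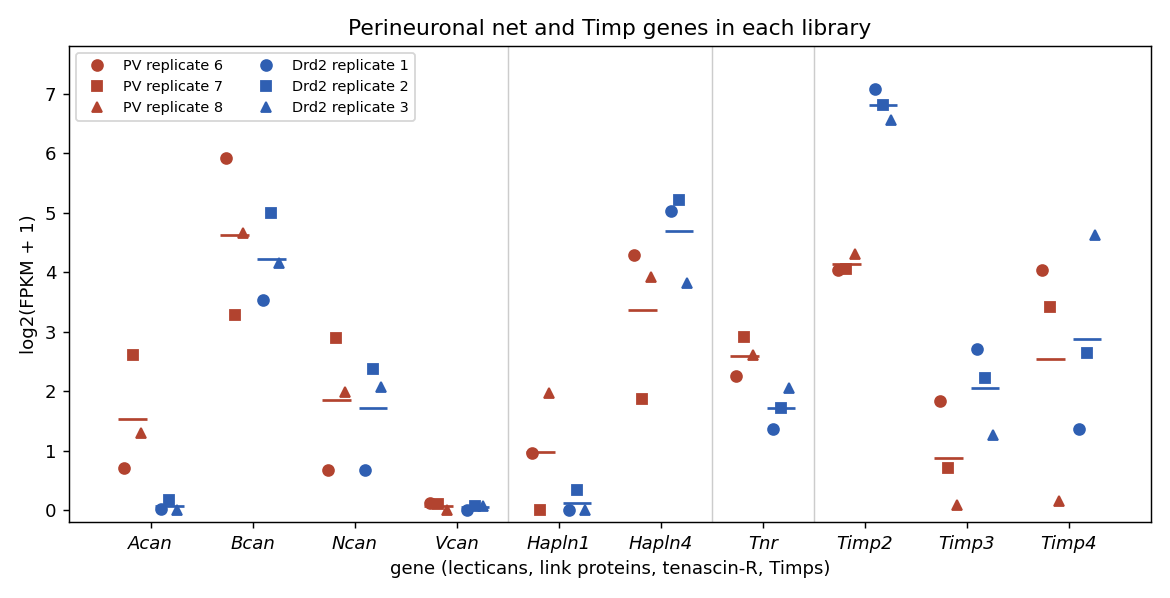
Levels of the 10 genes, as log2(FPKM + 1), in the 3 PV libraries (red) and the 3 Drd2 libraries (blue), each symbol being 1 library and each bar a class mean on that scale. The PV symbols of Timp2 lie well below the Drd2 symbols, those of Acan and Tnr lie above, and the other 7 genes overlap.

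Timp2, whose product inhibits metalloproteinases and also takes part in the activation of Mmp2 at the cell surface, was at 15.5, 15.5 and 18.8 FPKM in PV replicates 6, 7 and 8, against 134, 110 and 93.5 FPKM in Drd2 replicates 1, 2 and 3. The Drd2 libraries all lay far above the PV libraries, and within each class the values were close together. The means were 16.6 ± 1.90 FPKM in PV and 113 ± 20.3 FPKM in Drd2 (SD, n = 3 each), so the Drd2 mean was 6.78 times the PV mean. On the log2(FPKM + 1) scale the fold, PV minus Drd2, was -2.68 ± 0.38 (SE), between -2.90 and -2.43 over all 17 settings used. Timp2 exceeded 74.3%, 77.2% and 76.9% of tested genes in the PV libraries and 95.8%, 95.2% and 93.9% in the Drd2 libraries. These levels rest on 1673 to 2077 recovered reads per PV library and 8683 to 17599 per Drd2 library. The gene (ENSMUSG00000017466, mm10 chromosome 11, 118301069 to 118355740, minus strand) shares no exon bases with another annotated gene. In one of its introns lies Cep295nl, at a listed 0 in all PV libraries and 0.900, 0.274 and 0 FPKM in the Drd2 libraries.

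Timp2 was the only 1 of the 7 genes in the fit to pass the limma threshold (adjusted p under 0.05, Benjamini-Hochberg over all genes), and it was lower in PV. Of all genes tested, 0.261% passed in either direction, 0.0436% with PV higher and 0.218% with PV lower. The gene was chosen with that contrast known, so the count carries no weight of its own. The call was lost without PV replicate 8, without any 1 of the 3 Drd2 libraries, and without PV replicate 7 and Drd2 replicate 3 together. It was also lost with a pseudocount of 0.1 FPKM, with no filter on low values and with no trend in limma. The fold hardly moved with the library left out (-2.81 to -2.55).

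The other inhibitors did not separate the classes. Timp3, which binds to the matrix and also inhibits Adam and Adamts enzymes, was at 2.57, 0.643 and 0.0693 FPKM in PV, against 5.51, 3.64 and 1.40 FPKM in Drd2. PV replicate 6 lay inside the Drd2 range and the other 2 PV libraries below it. The log2 fold was -1.18 ± 0.71 (SE), from -2.71 with voom on recovered reads to -0.48 with a pseudocount of 5 FPKM. In Timp3 (chromosome 10), 21.3% of the exon length is shared with exons of Syn3 on the opposite strand, and the sources used here do not say whether counting used strand. Syn3 itself was at 0.0574 to 0.509 FPKM in PV and 0.0949 to 2.54 FPKM in Drd2, highest in the Drd2 library with the least Timp3. Timp4 lies within Syn2, on the opposite strand, and shares 1.53% of its exon length with it. Syn2 was at 33.8, 45.5 and 54.1 FPKM in PV replicates 6, 7 and 8, against 3.74, 4.89 and 17.2 FPKM in Drd2 replicates 1, 2 and 3.

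Timp4, an inhibitor known for its expression in brain and heart, was at 15.4, 9.61 and 0.114 FPKM in PV replicates 6, 7 and 8, against 1.56, 5.23 and 23.6 FPKM in Drd2 replicates 1, 2 and 3. Each class held both high and low libraries, and the log2 fold of -0.34 ± 1.15 (SE) was smaller than its error. It turned positive without Drd2 replicate 3 (0.54), without PV replicate 8 (0.85), without PV replicate 7 and Drd2 replicate 3 together (0.098) and with quantile normalization (0.17). Timp4 is also known as an astrocyte transcript. The 10 astrocyte markers summed to 238, 183 and 85.3 FPKM in PV and 40.6, 139 and 185 FPKM in Drd2. The 10 microglial markers summed to 1032, 467 and 316 FPKM in PV and 23.9, 72.4 and 2264 FPKM in Drd2. Within both classes the libraries ranked alike in Timp4 and in both sums, and the part of such cells in the Timp4 level was not tested. Single astrocyte markers were less uniform than their sum, in which S100b weighed heavily (144, 129 and 45.4 FPKM in PV, 15.3, 10.9 and 96.7 FPKM in Drd2). Gfap, Aldh1l1 and Agt ranked the libraries of each class as Timp4 did. Slc1a3 and Gjb6 ran in the opposite order in PV and were highest in Drd2 replicate 2. In such bulk libraries, a smaller number of cells of a type and less RNA per cell cannot be told apart.

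Because Timp2 was so abundant, the summed FPKM of the 3 inhibitors was 33.5, 25.8 and 19.0 in PV and 141, 119 and 118 in Drd2. Timp2 made up 46.3%, 60.2% and 99.0% of it in the PV libraries and 95.0%, 92.6% and 78.9% in the Drd2 libraries, so its share overlapped between the classes while its level did not. Timp4 made up 46.1%, 37.3% and 0.599% in the PV libraries and 1.11%, 4.38% and 19.9% in the Drd2 libraries, and Timp3 at most 7.66% in any library. Timp1, the remaining family member, reached 0.0756 FPKM in PV replicate 6, with a listed 0 in the other 5 libraries.

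**Figure D2:**
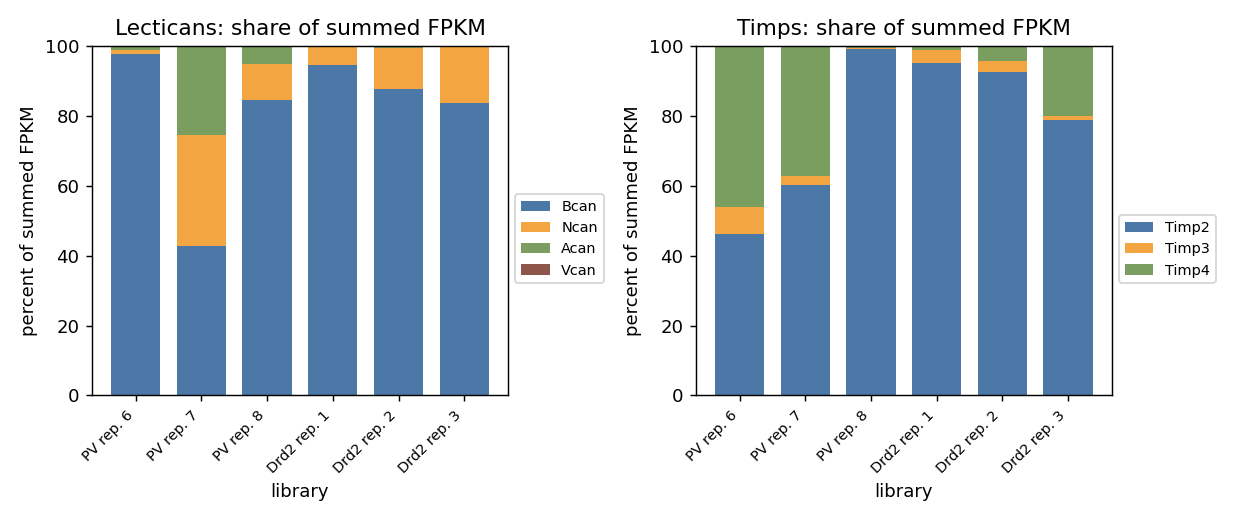
Share of each gene in the summed FPKM of the 4 lecticans (left) and the 3 Timps (right), with 1 bar per library and the PV libraries on the left of each panel. Bcan fills most of every lectican bar except that of PV replicate 7 (42.9%), and Timp2 most of every Timp bar except that of PV replicate 6 (46.3%).

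Among the lecticans, Acan was the one whose libraries did not overlap between the classes. It was at 0.633, 5.12 and 1.46 FPKM in PV replicates 6, 7 and 8, against 0.0159, 0.129 and 0 FPKM in Drd2 replicates 1, 2 and 3. Each PV library was above each Drd2 library, but the PV libraries themselves differed widely and 1 of them was under 1 FPKM. In recovered reads these were 141, 1059 and 309 in PV and 4, 29 and 0 in Drd2, and in the Drd2 library with 0 reads 3 reads would be worth 0.0169 FPKM. The means were 2.40 ± 2.39 FPKM in PV and 0.0484 ± 0.0705 FPKM in Drd2 (SD, n = 3 each), so the PV SD was as large as its mean. Acan lies on chromosome 7 (79053483 to 79115099, plus strand), 2 bases from Hapln3, which was listed at 0 in 5 libraries and was at 0.00955 FPKM in PV replicate 6.

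Bcan, the smallest lectican of the brain, was at 59.4, 8.75 and 24.3 FPKM in PV, against 10.6, 31.0 and 16.7 FPKM in Drd2. The PV libraries spanned the whole Drd2 range, and the log2 fold of 0.39 ± 0.70 (SE) turned to -0.25 without PV replicate 6. Ncan, a lectican most prominent in the developing brain, was at 0.601, 6.48 and 2.95 FPKM in PV, against 0.606, 4.19 and 3.22 FPKM in Drd2. Its lowest values were all but equal in the 2 classes, and its log2 fold of 0.14 ± 0.80 (SE) turned to -0.38 without PV replicate 7, to -0.37 without Drd2 replicate 1 and to -0.20 without PV replicate 7 and Drd2 replicate 3 together. Vcan, a widespread lectican, was at 0.0928, 0.0774 and 0 FPKM in PV and 0, 0.0507 and 0.0551 FPKM in Drd2, which is at most 40 reads in a library.

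The make-up of the lecticans therefore differed most between single libraries. Of their summed FPKM, Bcan accounted for 97.8%, 42.9% and 84.6% in the PV libraries and for 94.4%, 87.7% and 83.6% in the Drd2 libraries. In PV replicate 7 the remainder was Ncan (31.7%) and Acan (25.1%). The share of Acan was 1.04%, 25.1% and 5.09% in PV and 0.142%, 0.366% and 0% in Drd2, again without overlap.

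Tenascin-R, encoded by Tnr, was at 3.77, 6.54 and 5.10 FPKM in PV replicates 6, 7 and 8, against 1.58, 2.29 and 3.14 FPKM in Drd2 replicates 1, 2 and 3. The classes did not overlap, although the lowest PV and the highest Drd2 library were close. The means were 5.14 ± 1.39 FPKM in PV and 2.34 ± 0.784 FPKM in Drd2 (SD, n = 3 each), with a log2 fold of 0.88 ± 0.63 (SE) that ran from 0.46 to 1.23 over the 16 settings in which it was fitted. Tnr is also made by oligodendrocytes. The 10 oligodendrocyte markers summed to 316, 337 and 69.8 FPKM in PV and 412, 1467 and 74.2 FPKM in Drd2. The part of such cells in the Tnr level was not tested. Without PV replicate 7 and Drd2 replicate 3 the Tnr values were 3.77 and 5.10 FPKM in PV and 1.58 and 2.29 FPKM in Drd2. Exons of Tnr share 3.44% of their length with Gm38039, which was listed at 0 in every library.

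Of the 7 genes in the fit, Timp2 and Tnr had no overlap between the 3 PV and the 3 Drd2 libraries. Among all genes tested, 19.0% had none, 5.83% with PV higher and 13.1% with PV lower. These genes were listed with the contrast known, and nothing is read from that count.

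Hapln4, a link protein that in the mouse brain is known to bind brevican at nets and synapses, was at 18.6, 2.66 and 14.2 FPKM in PV, against 31.8, 36.3 and 13.2 FPKM in Drd2. Drd2 replicate 3 fell among the PV libraries and the other 2 Drd2 libraries lay above them all, with a log2 fold of -1.33 ± 0.72 (SE), from -1.79 to -0.58 with 1 library left out. Hapln1, the link protein needed for aggrecan-rich nets, was at 0.961, 0 and 2.91 FPKM in PV and 0, 0.271 and 0 FPKM in Drd2. PV replicates 6 and 8 had the most Hapln1, but PV replicate 7, the library with the most Acan, was listed at 0. Of the summed FPKM of both link proteins, Hapln4 made up 83.0% to 100% in PV and 99.3% to 100% in Drd2.

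**Figure D3:**
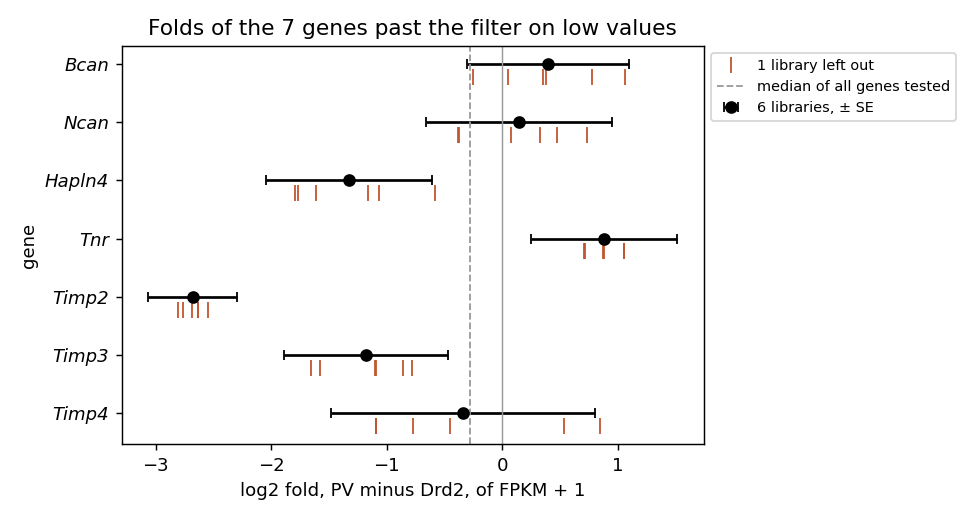
Log2 folds, PV minus Drd2, of the 7 genes past the filter on low values, with black points and bars for the fit of all 6 libraries ± SE and orange ticks for the fits without 1 library. Timp2 stays near -2.68 whichever library is left out, Bcan, Ncan and Timp4 have ticks on both sides of 0, and the dashed line is the median of all genes tested (-0.28).

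In the mouse genome each lectican gene has a link protein gene as its neighbour. Ncan and Hapln4 lie 2222 bases apart on chromosome 8 and point in opposite directions. PV replicate 7 had the highest Ncan level (6.48 FPKM) and the lowest Hapln4 level (2.66 FPKM) of all libraries. Vcan and Hapln1 lie 43659 bases apart on chromosome 13, and both were low. Bcan and Hapln2 lie 21519 bases apart on chromosome 3, on the same strand. Hapln2, a link protein of nodes of Ranvier made by oligodendrocytes, was at 0, 1.16 and 0 FPKM in PV, against 23.3, 28.7 and 0.832 FPKM in Drd2, and did not pass (limma adjusted p = 0.259). It was high in the 2 Drd2 libraries with the largest sums of oligodendrocyte markers (412 and 1467 FPKM). Bcan was at 10.6 and 31.0 FPKM in those 2 libraries and highest in PV replicate 6, where Hapln2 was listed at 0.

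**Figure D4:**
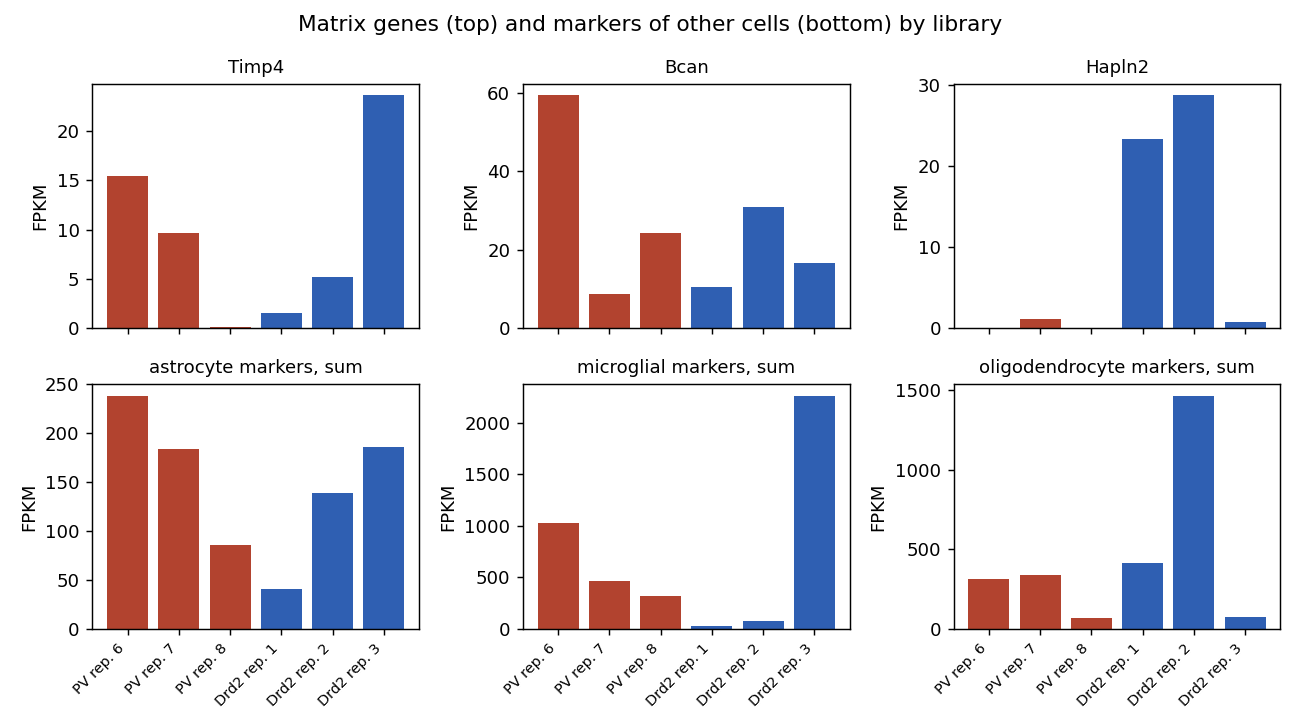
FPKM of Timp4, Bcan and Hapln2 (top) and summed FPKM of the markers of astrocytes, microglia and oligodendrocytes (bottom), with 1 bar per library, PV libraries in red on the left and Drd2 libraries in blue on the right. Timp4 is highest in Drd2 replicate 3 (23.6 FPKM), which also has the largest microglial sum (2264 FPKM), and Hapln2 is high in Drd2 replicates 1 and 2.

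Markers of glia were thus present in all libraries, at levels that differed between single libraries. The sums of precursor markers of oligodendrocytes were 29.1, 19.6 and 25.0 FPKM in PV and 2.15, 17.9 and 10.4 FPKM in Drd2 (exact permutation p = 0.1, two-sided, the smallest that 3 against 3 allows), and Neu4 and C1ql1 each came mainly from 1 PV library. Haemoglobin and Alas2 summed to 3002, 3204 and 743 FPKM in PV and 0.336, 12.1 and 0 FPKM in Drd2 (exact permutation p = 0.1). Of these 5 blood markers 3 were tested in limma, and 3 passed its threshold with PV higher. Among all 11478 genes tested, 5 passed in that direction (0.0436%). Of 12 vascular markers at most 2 reached 1 FPKM in any library, and Cldn5 was listed at 0 in all 6. Of 4 ependymal markers at most 1 did. The same exact permutation test gave p = 0.6 for the astrocyte sums and p = 0.4 for the oligodendrocyte sums. The microglial, vascular and ependymal sums overlapped between the classes and gave larger p-values. The 7 neuronal markers summed to 1371, 1625 and 1500 FPKM in PV and 1124, 1347 and 1357 FPKM in Drd2 (exact permutation p = 0.1). Their folds were mixed, 4 above 0 and 3 below. Snap25, the largest part of the PV sums, was at 751, 1109 and 766 FPKM in PV and 202, 331 and 503 FPKM in Drd2. Tubb3 went the other way, at 285, 61.7 and 311 FPKM in PV and 510, 563 and 428 FPKM in Drd2. The neuronal and precursor sums thus do not stand for all of their markers. Acan and Tnr were higher in the same class as the neuronal, blood and precursor sums, and Timp2 was lower there. The part of such cells in the levels of these 3 genes was not tested.

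The starts of the 3 genes whose libraries did not overlap are shown as the 250 bases before the RefSeq start (build GRCm38.p6, 5′ to 3′ on the gene's strand). That start can differ from the gene bounds given above, which come from another annotation. The Timp2 window lies inside those bounds, and the Acan window ends short of them. A search for 3 motifs covered both strands, and its matches are in capitals. The motifs were TATAAA (in 12.4% of 32851 promoter windows of that length), CCAAT (33.8%) and GGGCGG (32.7%), and no base belonged to matches of different motifs.
Timp2: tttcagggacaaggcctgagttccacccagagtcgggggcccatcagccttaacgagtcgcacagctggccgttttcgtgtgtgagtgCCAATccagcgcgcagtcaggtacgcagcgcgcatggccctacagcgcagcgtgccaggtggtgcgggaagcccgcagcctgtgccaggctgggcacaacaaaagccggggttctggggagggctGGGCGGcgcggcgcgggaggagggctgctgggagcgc
Acan: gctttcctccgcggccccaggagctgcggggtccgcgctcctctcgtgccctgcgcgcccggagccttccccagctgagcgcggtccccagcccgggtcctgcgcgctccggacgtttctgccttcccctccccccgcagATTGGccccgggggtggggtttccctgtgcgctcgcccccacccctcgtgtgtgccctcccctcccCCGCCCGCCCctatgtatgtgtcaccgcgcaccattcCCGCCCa
Tnr: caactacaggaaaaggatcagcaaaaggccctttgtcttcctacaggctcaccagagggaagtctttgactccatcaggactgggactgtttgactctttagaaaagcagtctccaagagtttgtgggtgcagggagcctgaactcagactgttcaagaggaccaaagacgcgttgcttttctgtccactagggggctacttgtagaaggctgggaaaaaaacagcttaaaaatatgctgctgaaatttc
The Timp2 window (chr11:118355412-118355661, minus strand) held 21 CpG pairs, 1 CCAAT and 1 GGGCGG match. The Acan window (chr7:79052976-79053225, plus strand) held 26 CpG pairs, 1 CCAAT and 3 GGGCGG matches. The Tnr window (chr1:159523519-159523768, plus strand) held 2 CpG pairs and none of the 3 motifs. The median over all windows was 6 CpG pairs. Timp2 and Acan, which were higher in different classes, thus both have more CpG pairs than the median window, and a match describes letters only.

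The genes most like each in their levels over the 6 libraries were ranked by Pearson's r of log2(FPKM + 1) among 6218 named genes with a mean of at least 5 FPKM. As the 6 libraries form 2 classes and also differ in depth and mitochondrial share, r is a description over 6 points. The pattern of Timp2 was closest to Rsph9 (r = 0.997), a protein of motile cilia, Klhl11 (0.996) and Zcchc12 (0.994). Each of the 3 was higher in all Drd2 libraries than in any PV library, and Rsph9 was listed at 0 in PV. Hapln4 was closest to Apeh, a peptidase (0.997), Tmed3 (0.997) and Grhpr (0.993), and Bcan to Sez6 (0.973), Ldhd (0.970) and Pigs (0.966). Tnr was closest to Llph (0.993), Nus1 (0.988) and Zfhx4 (0.987), and Timp4 to the phosphodiesterase Pde4b (0.972), Pus1 (0.972) and Cyba (0.970). Cyba, an oxidase subunit of phagocytes, was at 71.1, 26.8 and 2.00 FPKM in PV and 2.80, 9.11 and 88.5 FPKM in Drd2.

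A wider set of 109 matrix genes that holds none of the 10 was read in the same fit. Like the 10, it was chosen with earlier results of these data known, so its values are a description. Of the 109 genes, 53 passed the filter and 0 passed the threshold in limma (0 with limma voom on recovered reads). In limma 10 of the 53 had an unadjusted p under 0.05, 8 of them lower in PV. Over all genes tested, 12.8% had such a p, and 9.77% had one and were lower in PV. Of the 53 folds, 15 were above 0 and 38 below 0, beside 4402 above and 7076 below over all genes tested. The median of the 53 was -0.53, beside -0.28 over all genes tested. The sign counts of single lists given below stand beside that same background. In 12 of the 53 (22.6%) the classes did not overlap, beside 19.0% of all genes tested.

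The lowest fold of the set belonged to a proteoglycan. Of 13 proteoglycans outside the lecticans that were tested, 9 had a fold below 0 and 4 above 0. Over all genes tested, 7076 of 11478 were below 0. Spock1, a testican that also carries heparan and chondroitin sulphate, was at 0.654, 0.272 and 2.45 FPKM in PV, against 37.5, 19.9 and 17.2 FPKM in Drd2, a log2 fold of -3.66 ± 0.67 (SE). All Drd2 libraries lay above all PV libraries, but Spock1 missed the threshold (limma adjusted p = 0.0535) and passed it with a pseudocount of 5 FPKM. Gpc6, a glypican anchored in the cell membrane, was at 1.20, 0 and 0.0113 FPKM in PV, against 8.19, 11.3 and 9.89 FPKM in Drd2, a log2 fold of -3.04 ± 0.66 that did not pass (limma adjusted p = 0.0951).

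Enzymes that build chondroitin sulphate, the sugar chain of the lecticans, were tested for 11 of 21 genes, 8 with a fold below 0 and 3 above. B3gat3, which completes the linker between protein and chain, was at 26.2 ± 6.04 FPKM in PV and 52.1 ± 10.8 FPKM in Drd2 (SD, n = 3 each; limma adjusted p = 0.369). Chsy3, a chondroitin synthase, was at 0.354 ± 0.614 FPKM in PV and 3.15 ± 1.25 FPKM in Drd2 (SD, n = 3 each; limma adjusted p = 0.288). Of 8 genes that make or cut hyaluronan, only the hyaluronidase Hyal2 was tested, at 2.97, 0 and 2.40 FPKM in PV and 6.75, 6.94 and 0 FPKM in Drd2. The hyaluronan synthases stayed under 1 FPKM except Has1 in Drd2 replicate 3 (2.49 FPKM).

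Receptors for matrix were tested for 9 of 12 genes, 7 with a fold below 0 and 2 above. Cd44, a hyaluronan receptor, was at 14.9, 24.9 and 16.7 FPKM in PV, against 8.84, 4.61 and 7.98 FPKM in Drd2, without overlap (log2 fold 1.29 ± 0.52; limma adjusted p = 0.343). Rtn4r, the Nogo receptor, which also binds chondroitin sulphate chains, was at 7.86, 0 and 6.79 FPKM in PV, against 15.9, 23.5 and 20.4 FPKM in Drd2 (log2 fold -2.34 ± 0.85; limma adjusted p = 0.285). Crtac1, a secreted antagonist of that receptor, was at 121, 67.1 and 132 FPKM in PV, against 22.6, 32.7 and 63.2 FPKM in Drd2. Its classes did not overlap either, and it did not pass (log2 fold 1.48 ± 0.49; limma adjusted p = 0.240). Plxna4, a co-receptor for the net ligand Sema3a, was at 6.93 ± 3.61 FPKM in PV and 10.4 ± 5.33 FPKM in Drd2 (SD, n = 3 each; limma adjusted p = 0.789).

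**Figure D5:**
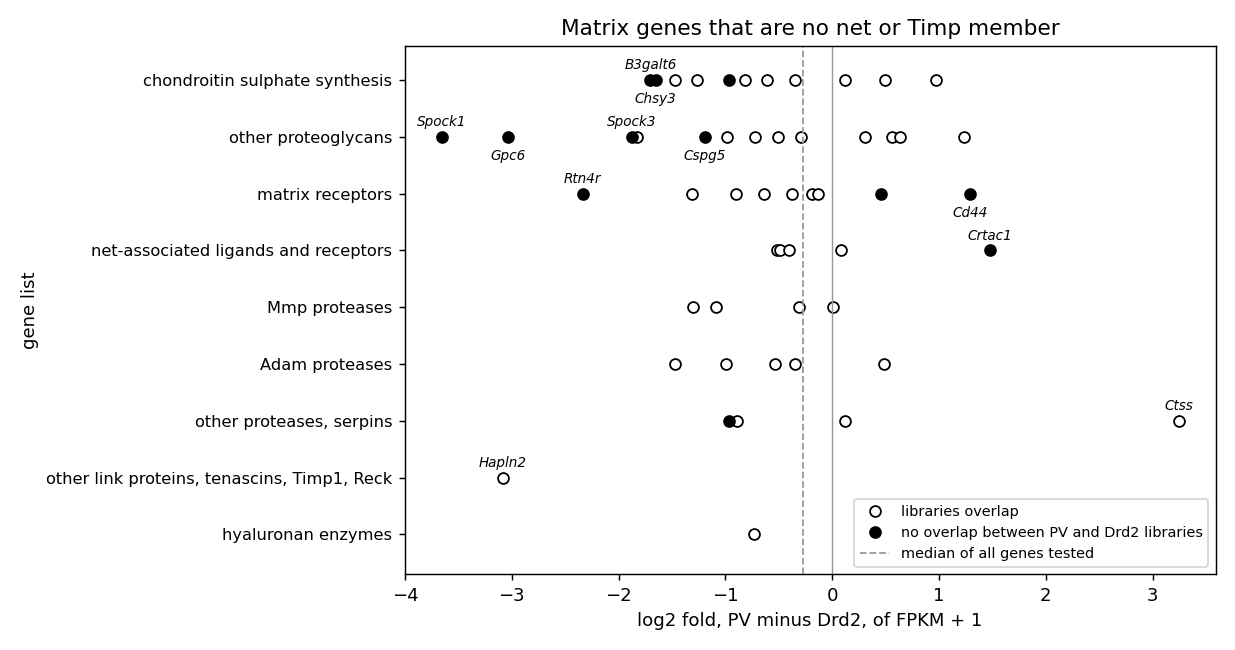
Log2 folds, PV minus Drd2, of 53 matrix genes other than the 10, with 1 point per gene in 9 lists, filled where the PV and Drd2 libraries do not overlap. Spock1 (-3.66) and Gpc6 (-3.04) lie farthest to the left among filled points and Crtac1 (1.48) farthest to the right, none past the limma threshold.

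Few of the enzymes that Timps inhibit passed the filter. Of 12 Mmp genes 4 were tested and of 14 Adam and Adamts genes 5, all of the latter from the Adam group, and none passed in limma. Mmp11 was at 0, 0 and 5.73 FPKM in PV and 3.71, 6.66 and 1.78 FPKM in Drd2 (limma adjusted p = 0.565). Mmp24, a membrane-bound enzyme of neurons, was at 2.57, 0 and 0.143 FPKM in PV and 3.61, 2.68 and 1.33 FPKM in Drd2 (limma adjusted p = 0.539). Adam15 was at 14.5, 0.229 and 9.24 FPKM in PV and 14.4, 11.4 and 20.7 FPKM in Drd2 (limma adjusted p = 0.533), and Adam9 at 6.50, 0.272 and 1.46 FPKM in PV and 10.0, 3.17 and 3.06 FPKM in Drd2 (limma adjusted p = 0.659). All 4 were lowest or listed at 0 in PV replicate 7, and their classes overlapped.

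Mmp2 and Mmp14, the pair of proteases that Timp2 acts on in the activation of Mmp2, were chosen after their values were seen. Mmp2 was at 0.0896, 0 and 0 FPKM in PV and 1.07, 0 and 4.08 FPKM in Drd2. Mmp14 was at 0.0338, 0 and 0 FPKM in PV and 2.64, 0 and 0.816 FPKM in Drd2. Both were listed at 0 in Drd2 replicate 2, where Timp2 was at 110 FPKM. Adamts4 and Adamts5, the main enzymes that cut aggrecan, did not pass the filter.

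Among other proteases and inhibitors, the serpin Serpini1, also called neuroserpin, was at 141, 166 and 110 FPKM in PV, against 298, 250 and 261 FPKM in Drd2, without overlap (log2 fold -0.96 ± 0.34; limma adjusted p = 0.275). Ctss, a cathepsin that is also a microglial transcript, was at 378, 535 and 140 FPKM in PV and 0, 22.4 and 1439 FPKM in Drd2. Its mean was 351 FPKM in PV and 487 FPKM in Drd2, so the means and the log2 fold of 3.24 ± 2.03 (limma adjusted p = 0.540) differ in sign. Reck, a membrane-anchored inhibitor chosen after its values were seen, did not pass the filter. It was at 0.00702, 0 and 0.00738 FPKM in PV, against 6.31, 4.14 and 0.0176 FPKM in Drd2.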

How the data were processed

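RNA was sequenced from aspirated PV-positive and Drd2-positive neurons (3 libraries each). The deposited values are FPKM, fragments per kilobase and per 1e6 fragments, computed by the authors. STAR and 3 build names (hg38, GRCh38, mm10) appear, per the submitters' processing notes. The sources used here name no quantifier, strand setting or annotation release. Of the identifiers, 94.1% were found in GENCODE M21 (mm10), which gave positions and exon lengths. The product of low FPKM and exon length came out as whole reads (97.9% to 98.8% of values of at most 20 reads within 0.01 read), which gave reads and depth. As PCR copies were not marked with molecular identifiers, reads and floors cover counting error only.

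The contrast PV minus Drd2 was fitted on log2(FPKM + 1), which understates folds of low genes, with limma 3.58.1 and its trend option in R 4.3.3, over the 11478 genes that reached 1 FPKM in 3 or more libraries, two-sided. The threshold was 0.05 after Benjamini-Hochberg adjustment. The test was tested on simulated data with normal noise and no library effects. That setting is simpler than these libraries, and no result here rests on it. Summed markers were compared by an exact permutation test. The 10 genes and all lists were chosen with earlier results of these data known. Of the wider lists, genes named are those past the threshold and the 2 with the smallest p in each list; for the 5 of the 10 genes with a mean of at least 5 FPKM in a class, the 3 genes with the most similar pattern, leaving out predicted, Riken-named and unnamed genes; genes beside or overlapping the 10; cell markers; Pvalb and Drd2. Mmp2, Mmp14 and Reck are marked as chosen after their values were seen. Has1, Timp1, Adamts4 and Adamts5 were also named outside these rules. Promoter windows are from RefSeq (GRCm38.p6), found for 9 of the 10 genes. Alternatives changed the pseudocount, the filter, the scaling (to TPM, by median of ratios or by quantiles), the trend, the model (voom on recovered reads) and the libraries kept.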

Additional observations from a re-analysis of the deposited data

How the results depend on the processing

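Timp2 kept a negative fold in all 17 settings, Hapln4 in 17 of 17 and Timp3 in all 16 in which it was fitted, and Tnr a positive one in 16 of 16. The number of the 10 genes past the limma threshold was 1 (Timp2) as reported and 0 with a pseudocount of 0.1 FPKM, with no filter on low values, with no trend, and without PV replicate 7 and Drd2 replicate 3 together, and 0 to 1 with 1 library left out. Over all genes 30 passed. That number was 4 with a pseudocount of 0.1 FPKM, 68 with one of 5 FPKM, 0 with no filter (1509 at an unadjusted p under 0.05), 68 with quantile normalization, 46 with no trend, 18 without PV replicate 7 and Drd2 replicate 3 together, and 1 to 56 with 1 library left out (1 without Drd2 replicate 3, 56 without PV replicate 6). The cause was not tested. Quantile normalization called 22 genes higher in PV and 46 lower, against 5 and 25. Of the 109 wider matrix genes 0 passed except with a pseudocount of 5 FPKM, where 1 (Spock1) did, and 0 passed with any 1 library left out. The median fold of all genes was -0.28, and -0.50 in TPM, -0.12 with median of ratios and 0.05 with quantile normalization. Timp2 was at -2.90, -2.48 and -2.43 under those 3 scalings, and Timp4 changed sign (0.17) under the last. No paired analysis was made. The classes share no replicate number, and the sources used here do not say whether libraries share mice. Precision is limited by 3 libraries per class and, for Vcan and the Drd2 libraries of Acan and Hapln1, by few reads. In PV replicates 6, 7 and 8, Hapln1 rested on 169, 0 and 487 reads. In PV replicate 8, Timp3 rested on 16 reads and Timp4 on 19.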
